A study of Homo sapiens with 6 samples.

Results

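The enzymes that write, erase and read histone and DNA methylation and acetylation were followed in LS180, a human colorectal adenocarcinoma cell line in long use, after siRNA against CTNNB1, MYC or MYU. CTNNB1 encodes beta-catenin, through which Wnt signals reach transcription. MYC is a transcription factor of growth, and MYU is a long non-coding RNA listed on the array as VPS9D1-AS1. Genes were chosen by symbol, from the DNMT, UHRF, TET, HDAC, SIRT, KDM, KMT, PRMT, SETD, SUV39H, EZH, KAT, EHMT and BRD families with EED and SUZ12. This gave 86 of the 14812 genes measured, on 90 probe sets. Of these, 82 are protein-coding and 4 are non-coding or a pseudogene (KDM4A-AS1, KDM7A-DT, KMT2E-AS1 and BRD7P3). UHRF2, TET3, EED, KMT2A, KMT2E, KAT6A, BRD1, BRD9, SETDB1, SETDB2, SETD1B and SETD4 were not analysed here.

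The study has 6 Affymetrix arrays of total RNA, all from LS180 cells. Each array with a CTNNB1, MYC or MYU siRNA has 1 control siRNA array whose title names it, which makes 3 pairs. The treatment tag of the first knockdown array reads CTNNB2, while its title and source name read CTNNB1. The controls of CTNNB1 and MYC siRNA share a number in their titles and the control of MYU siRNA has another. Whether CTNNB1 and MYC siRNA were compared with the same control RNA is not known. Each value is a log2 difference, the knockdown array minus its control array. A single array on either side leaves no replicate check and no p-value, and the words higher and lower refer to these arrays alone. Precision is limited by this number of arrays. For a sense of the noise, 85 hair keratin-associated genes (KRTAP), a family of the hair shaft chosen after the data were seen, had a standard deviation of 0.13 with CTNNB1 siRNA, 0.10 with MYC siRNA and 0.10 with MYU siRNA. The KRTAP values ran from -0.33 to 0.65 over the 3 pairs. This yardstick does not cover the noise of well expressed genes.

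Of the targeted transcripts, MYC was at -1.18 with its own siRNA, 2.27-fold lower. It was at -2.38 with CTNNB1 siRNA, a larger difference from that pair's own control, and at 0.04 with MYU siRNA. VPS9D1-AS1, the MYU transcript, was at -0.50 with its own siRNA, 1.41-fold lower and so within 1.5-fold. It was at -0.53 with CTNNB1 siRNA and -0.24 with MYC siRNA, so its difference was no larger in its own pair than in the CTNNB1 pair. No probe set is listed for CTNNB1.

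Histone tails and cytosines in CpG carry methyl and acetyl groups that are set by writers, removed by erasers and bound by readers. DNMT1 copies DNA methylation onto the new strand after replication, guided by UHRF1, while the TET enzymes oxidise methylated cytosine. The polycomb repressive complex 2, built on EZH2 or EZH1 with EED and SUZ12, methylates histone H3 at silenced genes. In intestinal crypts, DNMT1 serves mainly the dividing progenitor cells, which must copy their methylation at each round of replication.

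Of the 86 genes, 8 were at least 2-fold lower with CTNNB1 siRNA and 2 were at least 2-fold higher. Among all 14812 genes the shares were 4.14% lower and 2.8% higher, against 9.30% lower among the 86. On the higher side, 2 of 86 is no larger a share than this background. Among protein-coding genes alone 4.94% were lower, against 9.76% of the 82 protein-coding members. EZH2, DNMT1, KAT2A, UHRF1, SUV39H2, SUZ12, PRMT3 and KDM1A were the lower genes, and SIRT6 and SIRT7 the higher ones. With MYC siRNA, UHRF1 and KDM1B were at least 2-fold lower and 0 genes were higher. The background there was 0.446% lower and 0.412% higher, against 2.33% lower among the 86. With MYU siRNA 0 of 86 were 2-fold lower or higher, and the background was 0.0945% lower and 0.0608% higher. In all 3 pairs, 75 of 86 genes lay within 2-fold and 63 of 86 within 1.5-fold. With CTNNB1 siRNA 11.6% of the 86 were 2-fold apart, against 6.94% of all genes. With MYC siRNA the shares were 2.33% and 0.857%, and with MYU siRNA 0% and 0.155%. Medians over the 86 were -0.06 with CTNNB1 siRNA, -0.06 with MYC siRNA and -0.04 with MYU siRNA, and the medians of all genes were 0.

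**Figure D1:**
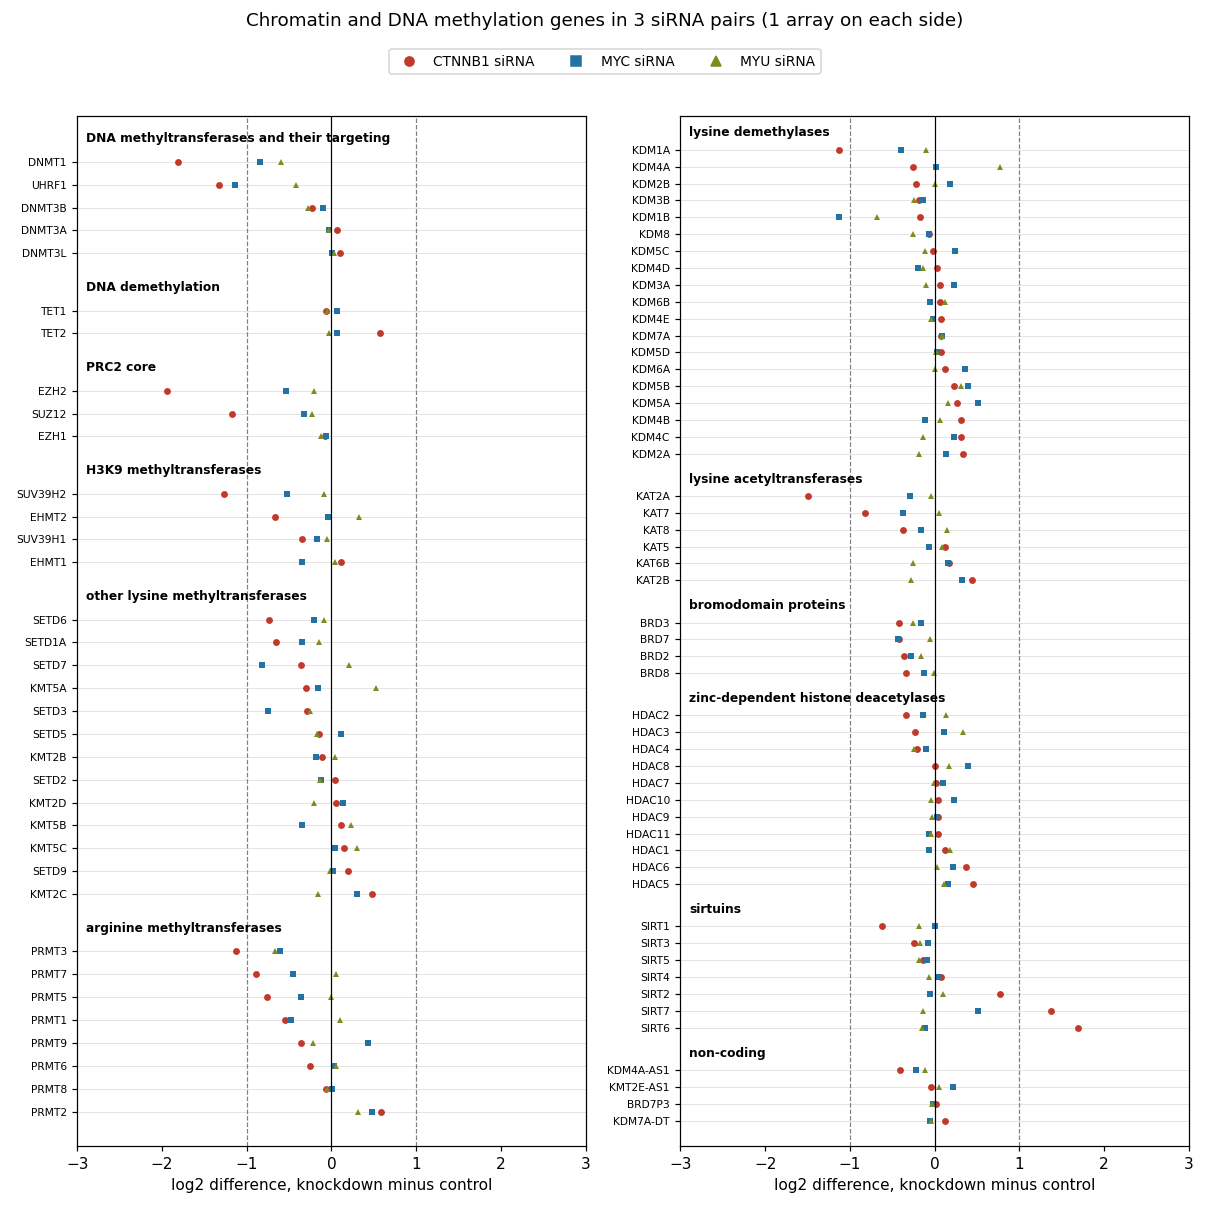
Log2 difference (knockdown minus its control) of each of the 86 genes, grouped by role, with CTNNB1 (circles), MYC (squares) and MYU siRNA (triangles); every point is 1 pair of arrays and dashed lines mark 2-fold. EZH2 at -1.94 and SIRT6 at 1.69 with CTNNB1 siRNA lie at the ends, and the zinc-dependent deacetylases stay between -0.34 and 0.45.

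Promoters are shown for genes that were 2-fold apart in at least 1 pair and whose window holds a searched motif, so that sequence and value can be read together. The sequences are RefSeq windows of build GRCh38.p14, from 250 bases before to 50 after an annotated start, and 80 of the 86 genes matched at least 1. The motifs searched, on both strands, were CACGTG, the E-box bound by MYC with MAX; TTTCCCGC and TTTGGCGC, forms bound by E2F factors, which drive genes of S phase; and ATCAAAG, bound by TCF/LEF factors, the partners of beta-catenin. None of these motifs overlaps another in the windows shown. Capitals mark the matches, on either strand:
EZH2, chr7:148884242-148884541, minus strand: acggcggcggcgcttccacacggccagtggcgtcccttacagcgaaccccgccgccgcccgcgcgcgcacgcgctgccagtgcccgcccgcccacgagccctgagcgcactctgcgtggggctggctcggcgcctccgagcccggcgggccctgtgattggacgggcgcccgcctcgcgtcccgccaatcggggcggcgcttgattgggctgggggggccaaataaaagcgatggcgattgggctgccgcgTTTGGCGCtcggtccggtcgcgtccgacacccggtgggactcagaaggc
UHRF1, chr19:4909251-4909550, plus strand: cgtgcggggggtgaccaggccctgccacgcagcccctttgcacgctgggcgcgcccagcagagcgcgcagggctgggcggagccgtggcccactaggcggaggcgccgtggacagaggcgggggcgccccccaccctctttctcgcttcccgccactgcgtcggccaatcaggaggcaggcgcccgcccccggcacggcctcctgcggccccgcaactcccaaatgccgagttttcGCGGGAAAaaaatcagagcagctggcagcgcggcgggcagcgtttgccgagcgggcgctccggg
SUZ12, chr17:31936757-31937056, plus strand: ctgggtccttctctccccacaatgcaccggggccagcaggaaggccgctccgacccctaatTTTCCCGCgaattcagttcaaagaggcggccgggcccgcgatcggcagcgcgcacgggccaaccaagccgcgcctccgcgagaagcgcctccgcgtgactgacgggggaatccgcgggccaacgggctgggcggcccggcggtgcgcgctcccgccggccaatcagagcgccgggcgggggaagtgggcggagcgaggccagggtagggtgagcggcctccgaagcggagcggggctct
KDM1B, chr6:18155172-18155471, plus strand: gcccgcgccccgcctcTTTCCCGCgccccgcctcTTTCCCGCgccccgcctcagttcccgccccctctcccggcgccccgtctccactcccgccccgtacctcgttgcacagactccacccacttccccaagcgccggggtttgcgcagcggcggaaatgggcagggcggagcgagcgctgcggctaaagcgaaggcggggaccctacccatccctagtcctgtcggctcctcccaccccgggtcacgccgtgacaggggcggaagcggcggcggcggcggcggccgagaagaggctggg
SIRT6, chr19:4182514-4182813, minus strand: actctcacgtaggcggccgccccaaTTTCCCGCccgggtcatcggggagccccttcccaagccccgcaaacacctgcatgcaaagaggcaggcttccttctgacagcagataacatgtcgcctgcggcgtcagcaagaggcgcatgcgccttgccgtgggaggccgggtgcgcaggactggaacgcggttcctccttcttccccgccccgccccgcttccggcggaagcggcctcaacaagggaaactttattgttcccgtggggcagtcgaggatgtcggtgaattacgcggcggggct
PRMT3, chr11:20387466-20387765, plus strand: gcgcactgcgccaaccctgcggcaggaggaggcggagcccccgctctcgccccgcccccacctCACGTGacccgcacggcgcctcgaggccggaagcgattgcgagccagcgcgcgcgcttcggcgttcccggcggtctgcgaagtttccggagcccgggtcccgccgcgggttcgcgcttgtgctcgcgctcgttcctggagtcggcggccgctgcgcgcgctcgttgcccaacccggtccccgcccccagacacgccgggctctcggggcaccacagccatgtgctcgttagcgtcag

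An E2F form was found in the windows of EZH2, UHRF1, SUZ12, KDM1B and SIRT6. The match of EZH2 begins at base 2 after the start, that of UHRF1, on the reverse strand as GCGGGAAA, at -14, that of SUZ12 at -189 and that of SIRT6 at -225. KDM1B holds the motif at -234 and again at -216. The E-box of PRMT3 begins at -187. EZH2 has 1 more window and UHRF1 2 more, SIRT6 has 1 more, and these hold none of the motifs; nor do the windows of DNMT1, KAT2A, KDM1A and SUV39H2. SIRT7 has no window in the table.

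Counted by gene, 5 of the 10 genes that were 2-fold apart and have a window hold an E2F form, against 2 of 70 other members, PRMT7 and BRD7. Among 9704 measured protein-coding genes with a window the share was 3.83%. Among the 504 that were 2-fold lower with CTNNB1 siRNA it was 10.5%, and among the 319 that were 2-fold higher it was 1.88%. Of the 5, EZH2, UHRF1 and SUZ12 were 2-fold lower with CTNNB1 siRNA. KDM1B was 2-fold lower with MYC siRNA alone, and SIRT6 was on the higher side. The 5 of 10 thus pools pairs and directions and is not like the shares of lower or higher genes. The motifs were also chosen with earlier results of these data known. With MYC siRNA the E2F share was 21.8% of the 55 lower and 2.38% of the 42 higher genes. For the E-box the shares were 15.0% of the 80 members and 11.3% of the measured protein-coding genes. It stood in 1 of the 10 members that were 2-fold apart and in 11 of the 70 others. Among the measured genes the E-box share was 18.5% of those lower and 12.2% of those higher with CTNNB1 siRNA, and 14.5% of those lower and 7.14% of those higher with MYC siRNA. Per window, CACGTG stands in 7.26% of all 35116 promoters, TTTCCCGC in 1.63%, TTTGGCGC in 0.652% and ATCAAAG in 2.62%. ATCAAAG was in 0 of the 124 windows of members, against 1.84% of the 13721 windows of measured protein-coding genes. In so few windows a count of 0 says little. A match describes letters in the window and is not a bound site.

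DNA methylation enzymes came first in the comparison. The deposited values are centred within each pair, so the arrays of a pair mirror each other: DNMT1 stood at 0.90 in the control and -0.90 in the CTNNB1 siRNA array. Its difference was therefore -1.81, or 3.50-fold lower, and only 0.621% of all genes had a lower value. In the MYC pair DNMT1 was at 0.42 in the control and -0.42 in the knockdown, a difference of -0.85. With MYU siRNA it was -0.60, 1.51-fold lower. DNMT1 was thus past 1.5-fold on the same side in all 3 pairs, but its MYU value was -0.58, within 1.5-fold, once the trend of differences with gene length was removed.

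UHRF1, which recognises hemimethylated DNA and brings DNMT1 to it, was lower by 2.50-fold with CTNNB1 siRNA (-1.32) and by 2.20-fold with MYC siRNA (-1.14). It was the lowest of the 86 in the MYC pair and rank 33 from the lowest of all genes. Its MYU value was -0.42, within 1.5-fold. The match in its promoter lies close to the start, as shown above.

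The enzymes that place methylation anew lay within 1.5-fold. DNMT3A was at 0.06 with CTNNB1 siRNA, -0.02 with MYC siRNA and -0.03 with MYU siRNA. DNMT3B stood at -0.22, -0.10 and -0.28, and the germline cofactor gene DNMT3L between 0.01 and 0.10. Of the demethylation enzymes TET2 was at 0.58 with CTNNB1 siRNA, just inside 1.5-fold, and at 0.06 and -0.03 in the other pairs. TET1 lay between -0.06 and 0.06 by the mean of its 2 probe sets. These ran from -0.14 to 0.14 and were on opposite sides of 0 with CTNNB1 and with MYC siRNA.

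Polycomb repressive complex 2 had the lowest member of the family. EZH2, its catalytic subunit in dividing cells, was at 0.97 in the control and -0.97 in the CTNNB1 siRNA array, 3.84-fold lower (-1.94), at rank 58 from the lowest of 14812 genes. With MYC siRNA it was -0.54 and with MYU siRNA -0.21. SUZ12, the scaffold subunit, was at -1.17, -0.33 and -0.23 in the same order. EZH1, the paralog of EZH2 found also in resting cells, had values of -0.08, -0.06 and -0.12. Within the CTNNB1 pair the paralogs thus stood apart, at -1.94 and -0.08, a difference that was not tested.

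Writers at lysine 9 of histone H3, a mark of heterochromatin, included SUV39H2 at -1.27 with CTNNB1 siRNA, 2.40-fold lower. Its values were -0.53 and -0.08 with MYC and MYU siRNA. EHMT2, also called G9a, was at -0.67, -0.04 and 0.32, so its MYU value lay above 0, and its partner EHMT1 was at 0.11, -0.35 and 0.05. SUV39H1 has 2 probe sets that disagreed in the CTNNB1 pair, at -0.67 and -0.04, with a mean of -0.35. The probe sets also disagreed with MYC siRNA, at -0.32 and -0.01, with a mean of -0.17. With MYU siRNA the mean was -0.05.

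Of 13 other lysine methyltransferases 0 were 2-fold apart in any pair, against 6.94%, 0.857% and 0.155% of all genes with CTNNB1, MYC and MYU siRNA. SETD6, which methylates the NF-kappaB subunit RELA, was at -0.74 with CTNNB1 siRNA. SETD1A, a writer of the promoter mark at lysine 4 of histone H3, was at -0.66. Both lay within 1.5-fold in the other pairs, at -0.21 and -0.35 with MYC siRNA and at -0.09 and -0.15 with MYU siRNA. SETD7 and SETD3 showed another order. SETD7, a monomethyltransferase, was at -0.82 with MYC siRNA, 0.20 with MYU siRNA and -0.35 with CTNNB1 siRNA. SETD3, the actin histidine methyltransferase, was at -0.75 with MYC siRNA, -0.29 with CTNNB1 siRNA and -0.25 with MYU siRNA.

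KMT5A, which methylates histone H4 during the cell cycle, had the highest MYU value of this group at 0.52, against -0.30 and -0.16 with CTNNB1 and MYC siRNA. KMT5C was at 0.15, 0.04 and 0.30 and KMT5B at 0.12, -0.34 and 0.23. The large enhancer and promoter writers stayed near their controls: KMT2B was at -0.11, -0.18 and 0.04, KMT2D at 0.06, 0.14 and -0.21, and KMT2C at 0.48, 0.30 and -0.16. SETD2, the trimethylase at lysine 36 of histone H3, was at 0.04, -0.12 and -0.14. SETD5 lay between -0.17 and 0.11 and SETD9 between -0.02 and 0.20.

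Arginine methyltransferases were below 0 in 7 of 8 cases with CTNNB1 siRNA, with a median of -0.45, against 48.9% of all genes below 0, but PRMT3 was the single one past 2-fold. With MYC siRNA 4 were below 0 and 4 above, and with MYU siRNA 3 were below and 4 above. PRMT3, which acts on ribosomal protein S2, was at -1.13 with CTNNB1 siRNA, -0.61 with MYC siRNA and -0.67 with MYU siRNA. Like DNMT1 it lay past 1.5-fold below 0 in all 3 pairs. PRMT7 was at -0.89, -0.46 and 0.06, and PRMT5, the main symmetric dimethylase, at -0.76, -0.36 and 0. PRMT1, the main asymmetric dimethylase, was at -0.55, -0.48 and 0.10. These 3 enzymes were below 0 with CTNNB1 and MYC siRNA and at or near 0 with MYU siRNA.

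PRMT2 stood on the other side, at 0.59, 0.48 and 0.31. PRMT9 was at -0.36 with CTNNB1 siRNA and 0.43 with MYC siRNA, on opposite sides of 0 but within 1.5-fold, and at -0.22 with MYU siRNA. PRMT6 was at -0.26, 0.03 and 0.05. PRMT8, a gene of the nervous system, lay between -0.06 and 0.

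Among 19 lysine demethylases 18 lay within 1.5-fold with CTNNB1 siRNA, against 12406 of all 14812 genes. The exception was KDM1A, or LSD1, the flavin-dependent eraser of the CoREST complex, at -1.12 (2.18-fold lower). It was at -0.40 with MYC siRNA and -0.10 with MYU siRNA. KDM1B, its paralog, had another order, lowest in the MYC pair: -0.17 with CTNNB1 siRNA, -1.13 with MYC siRNA and -0.68 with MYU siRNA. In the MYC pair KDM1B was at 0.57 in the control and -0.57 in the knockdown, rank 36 from the lowest of all genes, and in the MYU pair it was the lowest of the 86. The difference between pairs was not tested, since each value rests on 1 array on either side.

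KDM4A, an eraser at lysines 9 and 36 of histone H3, had the highest MYU value of the 86 at 0.77, 1.70-fold, with 99.8% of all genes below it. It was at -0.26 with CTNNB1 siRNA and 0.02 with MYC siRNA. Its antisense transcript KDM4A-AS1 was at -0.41, -0.22 and -0.11 with CTNNB1, MYC and MYU siRNA. The other members of the subfamily lay lower with MYU siRNA: KDM4B was at 0.06, KDM4C at -0.14, KDM4D at -0.14 and KDM4E at -0.04.

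KDM5A and KDM5B, which erase the lysine 4 mark, were above 0 throughout. KDM5D, a gene of chromosome Y, was also above 0, but by less than the KRTAP standard deviation in every pair. Whether it is expressed in these cells could not be seen, since levels are lost. Not all erasers went this way. KDM5C was below 0 with CTNNB1 and MYU siRNA, and KDM1A and KDM1B, given above, were below 0 in every pair. KDM5A was at 0.27, 0.51 and 0.16 with CTNNB1, MYC and MYU siRNA, and KDM5B at 0.23, 0.40 and 0.31. KDM5C was at -0.01, 0.25 and -0.11 and KDM5D between 0.02 and 0.08. KDM6A, which opposes EZH2, was at 0.12, 0.36 and 0, while KDM6B lay between -0.06 and 0.12. KDM2A had 0.33, 0.13 and -0.18, KDM2B -0.22, 0.19 and 0.01, KDM3A 0.06, 0.23 and -0.10, and KDM3B -0.18, -0.14 and -0.24. KDM7A was between 0.08 and 0.09 and KDM8 between -0.26 and -0.06. Apart from KDM1A, KDM1B and KDM4A, all the lysine demethylases lay within 1.5-fold in every pair. The remaining non-coding matches, KMT2E-AS1, KDM7A-DT and BRD7P3, lay between -0.05 and 0.22 in every pair.

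Acetyltransferases were led by KAT2A, or GCN5, of the SAGA and ATAC complexes, at -1.49 with CTNNB1 siRNA (2.82-fold lower), with 0.75 in the control and -0.75 in the knockdown. In the other pairs KAT2A was at -0.29 and -0.04. Its paralog KAT2B, or PCAF, was at 0.44, 0.32 and -0.27. KAT7, or HBO1, which acetylates histones at replication origins, was at -0.82, -0.37 and 0.05. KAT8 was at -0.38, -0.16 and 0.15, KAT5 between -0.06 and 0.13, and KAT6B at 0.17, 0.15 and -0.25.

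The bromodomain genes read acetylated lysine. BRD2 and BRD3, of the BET family, were at -0.36 and -0.42 with CTNNB1 siRNA, and BRD7 and BRD8 at -0.42 and -0.33. With MYC siRNA the values of the 4 genes ran from -0.43 to -0.12 and with MYU siRNA from -0.26 to -0.01. Every one of these values was below 0 and within 1.5-fold, where 48.9%, 49.4% and 48.3% of all genes were below 0 in the 3 pairs. With MYU siRNA BRD7 (-0.06) and BRD8 (-0.01) lay inside the KRTAP standard deviation of 0.10, so their sign says little.

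Histone deacetylases remove acetyl groups by a zinc ion or, in the sirtuins, with NAD. Of the 11 zinc-dependent enzymes, all measured, 0 reached 1.5-fold in any pair by the mean of their probe sets. An HDAC2 probe set did pass it with CTNNB1 siRNA (-0.63). Among all genes 9.8% were 1.5-fold lower and 6.44% higher in that pair, so a count of 0 among so few genes says little. HDAC5 was highest with CTNNB1 siRNA at 0.45, HDAC8 with MYC siRNA at 0.39 and HDAC3 with MYU siRNA at 0.33. HDAC1, a core of the NuRD, SIN3 and CoREST complexes, was at 0.13, -0.07 and 0.18. Its paralog HDAC2 has probe sets that disagreed with CTNNB1 siRNA, at -0.05 and -0.63, with a mean of -0.34. The HDAC2 probe sets were at 0 and -0.28 with MYC siRNA, and at 0 and 0.27 with MYU siRNA. Their means were -0.14 and 0.13. HDAC3, of the NCOR complexes, was at -0.23 with CTNNB1 siRNA and 0.11 with MYC siRNA. HDAC6, the cytoplasmic tubulin deacetylase, was at 0.38, 0.22 and 0.03. HDAC4 was at -0.21, -0.11 and -0.24, and HDAC7, HDAC9, HDAC10 and HDAC11 lay between -0.06 and 0.23 in every pair.

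The sirtuins spread more widely with CTNNB1 siRNA. SIRT6, a deacetylase of telomeric and promoter chromatin, was at -0.85 in the control and 0.85 in the knockdown, 3.23-fold higher (1.69), rank 111 from the highest of all genes. Its values were -0.11 with MYC siRNA and -0.15 with MYU siRNA. SIRT7, of the nucleolus, was at 1.38, 0.52 and -0.13, the first 2.60-fold higher. SIRT2, mainly of the cytoplasm, was at 0.78, -0.05 and 0.11. SIRT1 stood on the lower side at -0.62, 0 and -0.18. The mitochondrial sirtuins SIRT3, SIRT4 and SIRT5 lay between -0.24 and 0.08 in all pairs.

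**Figure D2:**
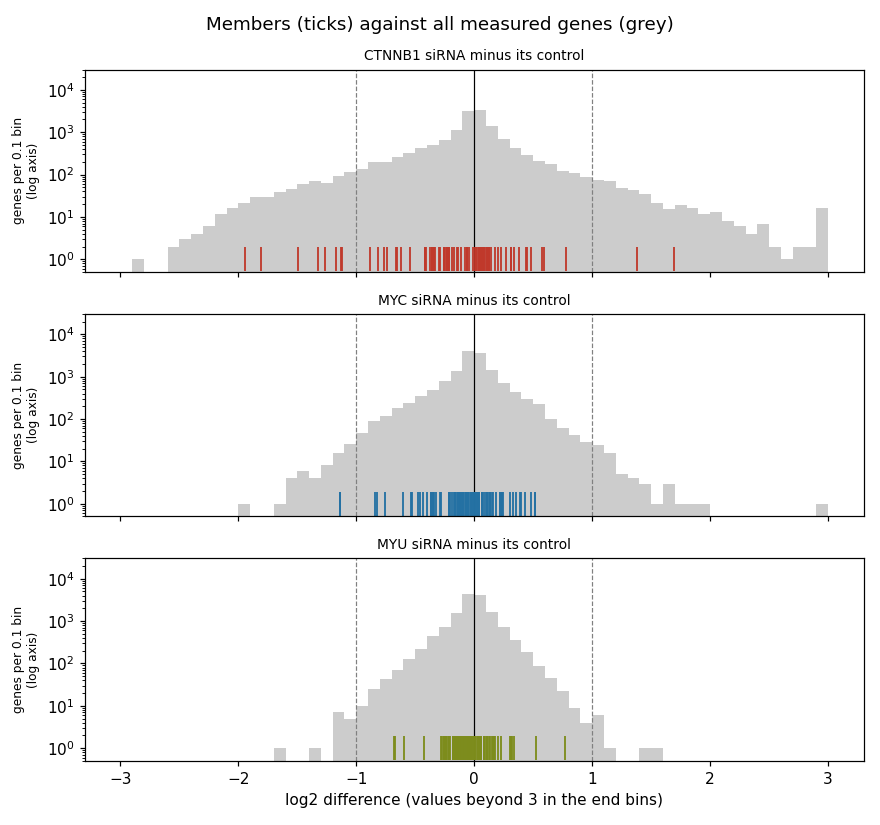
Log2 differences of all 14812 genes in each pair (grey, log count axis, bins of 0.1) with the 86 genes as ticks; dashed lines mark 2-fold. With CTNNB1 siRNA the ticks run from -1.94 to 1.69, with MYC siRNA from -1.14 to 0.52 and with MYU siRNA from -0.68 to 0.77.

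At 1.5-fold the counts were 15 lower and 4 higher with CTNNB1 siRNA, 6 and 0 with MYC siRNA, and 3 and 1 with MYU siRNA. The background at this threshold was 9.8% lower and 6.44% higher, 3.63% and 2.15%, and 1.21% and 0.668%. As shares of the 86, the lower genes were 17.4%, 6.98% and 3.49%. Besides the genes at 2-fold, DNMT1, PRMT3, SETD7 and SETD3 were 1.5-fold lower with MYC siRNA. The 3 lower genes with MYU siRNA were KDM1B, PRMT3 and DNMT1 (2 once the length trend was removed), and KDM4A was the higher one. PRMT2, at 0.59, passed 1.5-fold with CTNNB1 siRNA by a margin far below the KRTAP spread.

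**Figure D3:**
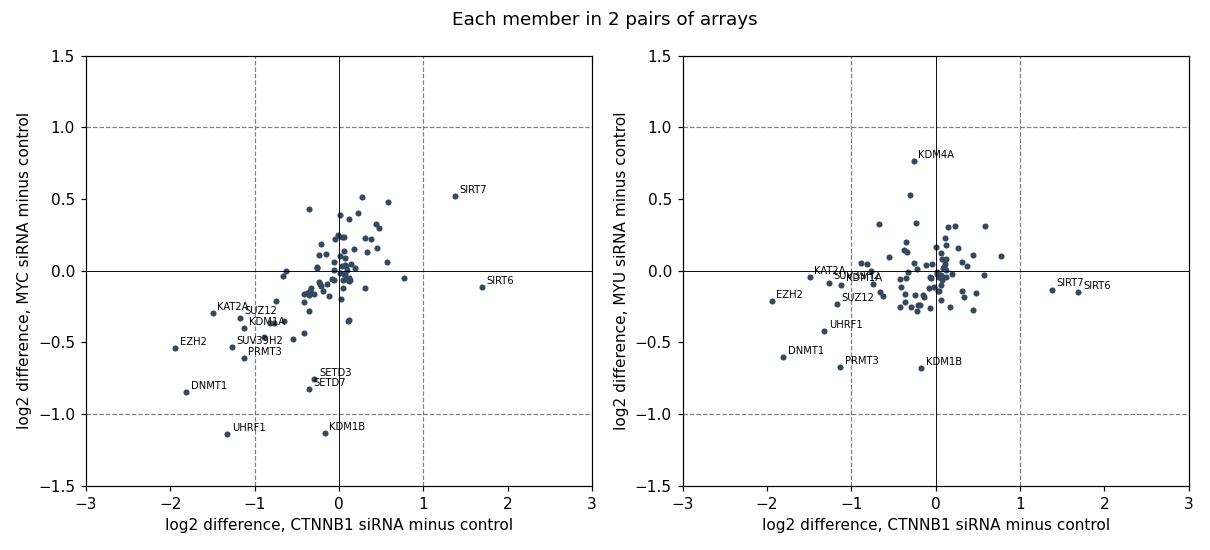
Each of the 86 genes by its log2 difference with CTNNB1 siRNA (x axis) and with MYC (left) or MYU siRNA (right, y axes); every point rests on 1 array on either side, dashed lines mark 2-fold, and genes past 2-fold on the x axis or 1.5-fold on the y axis are named. KDM1B lies low on the y axes (-1.13 and -0.68) at -0.17 on the x axis, and SIRT6 lies at 1.69 on the x axis with -0.11 and -0.15 on the y axes.

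Cell cycle genes were set beside these values. DNA replication genes were 2-fold lower in 19 of 20 cases with CTNNB1 siRNA (median -1.85), in 5 of 20 with MYC siRNA (-0.86) and in 0 of 20 with MYU siRNA (-0.33). Among all genes the lower shares were 4.14%, 0.446% and 0.0945%. Mitosis genes had medians of -1.78, -0.56 and -0.21. Of the 11 enzymes 2-fold apart in at least 1 pair, 7 had the same order of pairs as these medians, from the lowest with CTNNB1 siRNA to the highest with MYU siRNA: DNMT1, UHRF1, EZH2, SUV39H2, SUZ12, KAT2A and KDM1A. KDM1B, PRMT3, SIRT6 and SIRT7 had other orders. This order was found in 24 of all 86 enzymes and in 24.2% of all genes, and choosing genes that were lower with CTNNB1 siRNA favours it. The part of the cell cycle genes in the enzymes' values was not tested, and in bulk RNA fewer dividing cells and less RNA per cell cannot be told apart.

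Levels are lost through the centring, so the tissue could not be checked by the presence of markers, and their differences were taken instead. Of 9 colon epithelium markers measured, 4 were 2-fold higher with CTNNB1 siRNA, KRT20 (4.39), KRT19 (2.09), CEACAM5 (1.11) and VIL1 (1.06), and 1 with MYC siRNA, KRT20 (1.16), against 2.8% and 0.412% of all genes. Other values lay on the lower side. KRT20 was 1.65-fold lower with MYU siRNA (-0.73), and CDX2, a transcription factor of intestinal identity, was at -0.42, -0.29 and -0.02 with CTNNB1, MYC and MYU siRNA. Among 3 fibroblast markers LUM was at 2.78, 0.22 and 0.05 in the same order, while DCN and THY1 lay between -0.06 and 0.13 in all pairs. Among 3 leukocyte markers the lysosomal gene CD68 was at 2.65, 0.48 and 0.48, CD14 stayed between -0.03 and 0.06, and LYZ was at -0.23, 0.04 and 0.74. Their part in the results was not tested.

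Partners of the enzymes were taken from lists, as counts against the same backgrounds. With CTNNB1 siRNA 4.14% of all genes were 2-fold lower and 6.94% were apart in either direction. The shares were 0.446% and 0.857% with MYC siRNA, and 0.0945% and 0.155% with MYU siRNA. In lists this short a count of 0 lies near these shares. Histone chaperones, which hand histones to new DNA, were 2-fold lower in 5 of 8 cases with CTNNB1 siRNA, with a median of -1.52. ASF1B was at -1.95, NASP at -1.71, SUPT16H at -1.68 and SSRP1 at -1.53. With MYC siRNA 0 of 8 were 2-fold apart (median -0.41), and with MYU siRNA 0 of 8 (median -0.16).

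Of 10 heterochromatin and methyl-CpG readers 3 were 2-fold lower with CTNNB1 siRNA and 2 with MYC siRNA. CDCA7, an activator of the remodeller HELLS, was at -2.05 with CTNNB1 siRNA, -1.32 with MYC siRNA and -0.37 with MYU siRNA. The lamin B receptor gene LBR was at -1.12, -1.51 and -0.12. TRIM28, a corepressor that recruits SETDB1, was at -1.47, -0.60 and 0.55. The medians of this list were -0.85, -0.26 and -0.06.

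Of 14 HDAC corepressor genes RBBP4, a histone-binding subunit that PRC2 also uses, was 2-fold lower with CTNNB1 siRNA (-1.04), and the median was -0.30. Of 16 PRC2 accessory and PRC1 genes 0 were 2-fold apart in any pair, with medians of -0.18, -0.02 and -0.01. The 9 genes listed as shared COMPASS subunits, some of which belong to only part of these complexes, had 0 at 2-fold. Their medians were -0.52, -0.38 and -0.09. The 4 SWI/SNF genes measured, of 17 listed, had 0 at 2-fold and a median of -0.34 with CTNNB1 siRNA. Of 11 other histone methyltransferases and acetyltransferases HAT1, which acetylates new histone H4, was 2-fold lower with CTNNB1 siRNA (-1.06).

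Enzymes that supply methyl and acetyl groups went both ways. MTR, the methionine synthase, was at -1.69 with CTNNB1 siRNA, -1.29 with MYC siRNA and -0.54 with MYU siRNA. AMD1, which draws S-adenosylmethionine into polyamines, was at -1.06 with CTNNB1 siRNA. ACSS2, which makes acetyl-CoA from acetate, was 4.26-fold higher with CTNNB1 siRNA (2.09), against 0.10 and 0.05 in the other pairs. Of the 9 genes, 2 were 2-fold lower and 1 higher in the CTNNB1 pair.

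**Figure D4:**
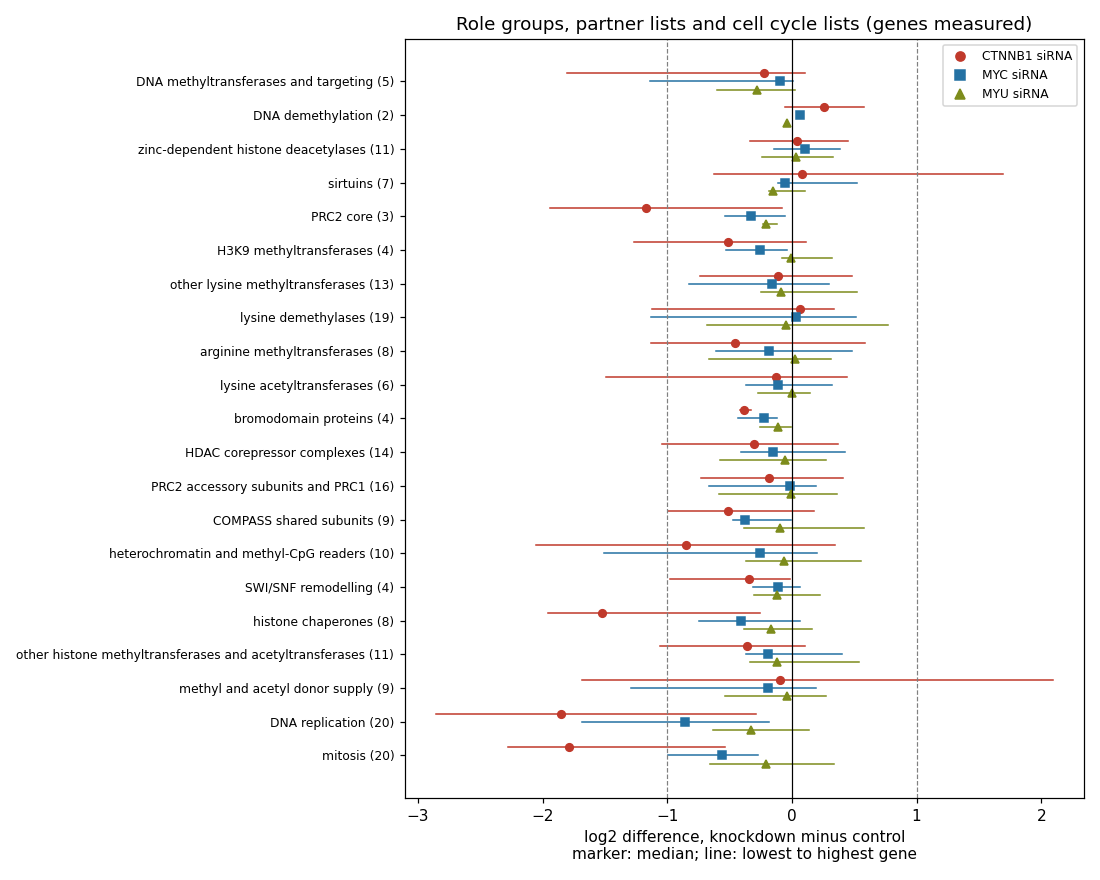
Median (marker) and lowest to highest log2 difference (line) of each role group, partner list and cell cycle list in the 3 pairs, with the number of genes measured in brackets; dashed lines mark 2-fold. In the CTNNB1 pair the medians of PRC2 core (-1.17), histone chaperones (-1.52), DNA replication (-1.85) and mitosis (-1.78) lie past 2-fold, and that of the zinc-dependent deacetylases is 0.04.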

How the data were processed

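Per the labels, TRIsure was used to extract total RNA, which carried a biotin label and followed Affymetrix's usual steps. How background, between-array scaling and probe summaries were handled is not given in the sources used here. Values were deposited on a log2 scale, and the authors' arrays mirror each other: a knockdown and its control sum to 0 within 1e-06 for every probe set. The base of the logarithm was assumed. This centring removes levels and the spread between controls, so limma, filters on low values and left-out arrays had nothing to work on. A gene's value is the knockdown minus the control, averaged over its probe sets.

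Of 44629 probe sets, 15835 have 1 gene symbol, 0 have several and 28794 are unnamed here. Each of the 15835 was found by its identifier in the RefSeq table of GRCh38.p14, giving 14812 genes, 11911 of them protein-coding. Members, partner lists and motifs were chosen with earlier results of these data known. A gene counted as apart at 2-fold, with 1.5-fold as an alternative; the other alternatives changed the centring, the probe set standing for a gene, the symbols, the gene type and the trend with gene length. Every member may be named; of a partner list, up to 4 genes at 2-fold. Promoters were printed for members at 2-fold with a motif match, fewer than planned. Nothing says that arrays came from separate cultures. The counting code was tested on simulated data. Python 3.11.15, numpy 2.4.6, pandas 2.3.3 and matplotlib 3.10.9 were used.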

Additional observations from a re-analysis of the deposited data

How the results depend on the processing

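At 1.5-fold in place of 2-fold, the counts of lower and higher genes were 15 and 4 with CTNNB1 siRNA, 6 and 0 with MYC siRNA and 3 and 1 with MYU siRNA. At 1.5-fold with the trend with gene length also removed (in 20 bins, a combination chosen after seeing the data), they were 15 and 4, 6 and 0, and 2 and 1. At 2-fold, the counts stayed at 8 and 2, 2 and 0, and 0 and 0 when arrays were centred on their medians, when the probe set nearest to or farthest from 0 stood for a gene (the latter chosen after seeing the data), with current symbols, with protein-coding genes alone and with the length trend removed. Under these the median of the 86 ran from -0.07 to -0.04 with CTNNB1 siRNA. HDAC2 and SUV39H1 moved by more than the KRTAP spread with the choice of probe set: with CTNNB1 siRNA they were at -0.05 and -0.04 by the nearest and at -0.63 and -0.67 by the farthest. Counts limited to genes of high level were not run, because the coarser rounding step that might mark such a level was missing in EEF1A1, GAPDH and KRT8. Without levels, no filter on low values could be run, and no array could be left out. No paired analysis was possible because each group has 1 array and the deposited values are already differences within a pair.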

Other observations

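Some members lie next to each other among protein-coding genes. UHRF1 and KDM4B are neighbours on chromosome 19: UHRF1 was at -1.32 and KDM4B at 0.31 with CTNNB1 siRNA, at -1.14 and -0.12 with MYC siRNA, and at -0.42 and 0.06 with MYU siRNA. KDM4D and KDM4E are neighbours on chromosome 11 and stayed between -0.20 and 0.07 in the 3 pairs.

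The members are longer than genes at large, with a median length of 41.7 kb against 20.9 kb. After the trend with length was taken out of the MYU pair, KDM1B was at -0.66, PRMT3 at -0.65, DNMT1 at -0.58 and KDM4A at 0.78.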
